A study of Mus musculus with 6 samples.

Results

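The elastic fibre and microfibril genes examined here were chosen by name as a fixed list of 9 genes: Eln, Fbn1, Fbn2, Fbln1, Fbln2, Fbln5, Emilin1, Mfap4 and Mfap5. All 9 were among the 38293 genes of the count table, and all 9 were among the 14746 genes that passed the filter on low counts. Bulk RNA-seq was performed on heart tissue of adult male mice on a C57BL/6J background, taken 14 days after a myocardial infarction (MI) for which the left anterior descending coronary artery had been ligated permanently. Of these animals, 3 were Zeb2 cKO mice, which carried Zeb2 fl/fl alleles together with a Cre driven by the Myh6 promoter, and 3 were Zeb2 fl/fl controls, labelled WT. All 6 hearts were therefore infarcted and all carried floxed Zeb2, and the Cre was active in cardiomyocytes while the counts came from every cell type in the tissue. The sample labels place the tissue in the border region of the infarct, whereas the study's methods name the remote zone, and these sources could not be reconciled.

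Elastic fibres give tissue its recoil. They are built from a core of crosslinked elastin, encoded by Eln, laid down on a scaffold of microfibrils whose main components are the fibrillins encoded by Fbn1 and Fbn2. Fibulins, emilin and the microfibril-associated glycoproteins help to bring elastin to that scaffold or sit at its surface, and in the heart these proteins are made mainly by fibroblasts, vascular smooth muscle cells and valve cells.

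The table held 37288174 to 51136331 counts per library, of which 14301225 to 19024394 were not mitochondrial, and the 9 genes together took 0.117% to 0.547% of the non-mitochondrial counts. The targeted gene, Zeb2, had 61.3, 116 and 71.9 CPM (counts scaled to library size) in Zeb2 fl/fl 1, 2 and 3, and 59.6, 72.6 and 66.5 in Zeb2 cKO 1, 2 and 3, so the groups overlapped (83.1 ± 29.0 against 66.2 ± 6.51, SD, n = 3 each, exact permutation test, two-sided p = 0.5). Zeb2 fl/fl 2 stood apart from the other 5 libraries. The summed CPM of 10 fibroblast markers was 9630.45 in that library and 1999 to 2403 in the others, 7 activated fibroblast markers summed to 1565 against 213 to 587, and 9 macrophage markers summed to 879 against 222 to 311. All genes of these 3 lists were highest in Zeb2 fl/fl 2, and none was at 0 in any library. The sum of 9 cardiomyocyte markers was 33997 in Zeb2 fl/fl 2 and 54261 to 65898 in the others. These values moved with every result below that rests on Zeb2 fl/fl 2, and their part in those results was not tested. In bulk tissue, a change in the number of cells of a type and a change in RNA per cell cannot be told apart.

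Promoter sequence was at hand for 5 of the 9 genes, from RefSeq on build GRCm38.p6, as windows of 250 bases before and 50 bases after an annotated start. Zeb2 encodes a zinc finger protein known to bind CACCT, read as AGGTG on the opposite strand. This motif was searched on both strands, and 51.9% of all 32851 windows of this length held it. Fbn1 had 3 matches, the most among the genes with a window, Fbln1 had 1, and Fbln5 had none, as did Fbln2 and Emilin1. The windows of Fbn1 (chr2:125506389-125506688, minus strand), Fbln1 (chr15:85205699-85205998, plus strand) and Fbln5 (chr12:101819070-101819369, minus strand) are shown to set these cases side by side, 5′ to 3′ along the gene with matches in capitals.
Fbn1: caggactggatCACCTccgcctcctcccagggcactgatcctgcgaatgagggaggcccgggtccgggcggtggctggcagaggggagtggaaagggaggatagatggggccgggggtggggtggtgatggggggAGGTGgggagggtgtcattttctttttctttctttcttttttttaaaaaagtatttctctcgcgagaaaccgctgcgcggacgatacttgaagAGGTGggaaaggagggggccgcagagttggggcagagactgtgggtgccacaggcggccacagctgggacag
Fbln1: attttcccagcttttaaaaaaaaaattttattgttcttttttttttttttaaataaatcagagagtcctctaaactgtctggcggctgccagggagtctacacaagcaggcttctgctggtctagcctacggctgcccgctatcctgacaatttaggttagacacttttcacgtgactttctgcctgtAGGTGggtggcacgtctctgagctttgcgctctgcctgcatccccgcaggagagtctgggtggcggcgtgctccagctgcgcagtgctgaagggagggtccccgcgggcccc
Fbln5: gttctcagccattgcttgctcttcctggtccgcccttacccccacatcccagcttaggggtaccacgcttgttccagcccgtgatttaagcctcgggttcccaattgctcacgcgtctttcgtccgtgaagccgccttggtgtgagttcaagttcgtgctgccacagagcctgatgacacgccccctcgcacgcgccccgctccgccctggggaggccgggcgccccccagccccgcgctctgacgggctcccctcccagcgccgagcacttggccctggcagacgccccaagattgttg
In Fbn1 the matches began at positions -239, -115 and -22 from the start, and in Fbln1 the match began at -62. The longer motif CACCTG, which contains CACCT, was in 20.2% of all windows and in 0 of the 7 windows of these genes. A match is a description of the letters only, and no binding was measured here.

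Per kilobase of merged exons, the order of the median levels over the 6 libraries was Fbn1 at 27.6 CPM per kb, Fbln2 at 17.8, Mfap4 at 11.6, Mfap5 at 10.7, Fbln1 at 9.59, Emilin1 at 4.45, Fbln5 at 2.81, Eln at 2.80 and Fbn2 at 0.538. Fbn1, the major fibrillin of adult microfibrils, was above Fbln2 in 6 of 6 libraries, Fbln1 was above Emilin1 in 6 of 6, and Eln was above Fbn2 in 6 of 6. The neighbours Mfap4 and Mfap5 kept their order in 4 of 6 libraries, Mfap5 and Fbln1 in 3, and Fbln5 and Eln in 4, so the order of these pairs varied between libraries. Both Fbln2 over Mfap4 and Emilin1 over Fbln5 held in 5, with Zeb2 fl/fl 2 as the exception for each. The orders were not tested. In Zeb2 fl/fl 2 the order was another one: Mfap4 led with 75.4 CPM per kb, followed by Fbn1 with 66.5 and Fbln1 with 66.1. The share of Fbln2 in the length-scaled sum of the 9 genes was 6.31% in that library and 18.1% to 23.2% in the other 5, while Fbln1 took 21.4% there and 7.94% to 16.8% elsewhere. The makeup of the set, as well as its total, thus differed in Zeb2 fl/fl 2.

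**Figure D1:**
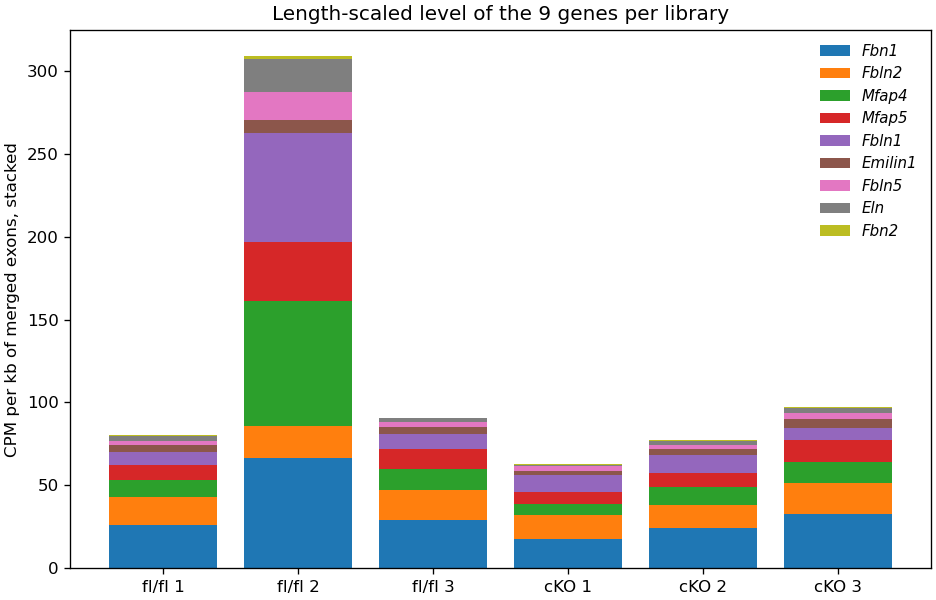
Stacked bars give the level of each of the 9 genes in CPM per kb of merged exons (y axis) for each library (x axis, 3 Zeb2 fl/fl and 3 Zeb2 cKO). The bar of Zeb2 fl/fl 2 is the tallest, and Fbln2 takes 6.31% of it against 18.1% to 23.2% of the other bars.

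For elastin, Eln (chromosome 5, 134702593 to 134747323, minus strand, GRCm38), the level was 23.8, 161 and 16.7 CPM in Zeb2 fl/fl 1, 2 and 3, and 7.45, 21.5 and 25.8 CPM in Zeb2 cKO 1, 2 and 3. One control library was thus 6.27 times the highest of the other 5, and the groups overlapped. The means were 67.3 ± 81.6 and 18.3 ± 9.59 CPM (SD, n = 3 each). In edgeR's quasi-likelihood test, the difference was -1.88 on the log2 scale (SE 0.92, 95% interval -4.06 to 0.30), and p was 0.957 after Benjamini-Hochberg adjustment. Without Zeb2 fl/fl 2 it came to -0.15 (interval -1.20 to 0.90). Among the other 5 libraries Eln still varied 3.46-fold from lowest to highest, the widest range of the 9 genes, with Zeb2 cKO 1 at the bottom. Elastin relative to fibrillin-1, as the ratio of their levels per kb, was 0.112, 0.300 and 0.0714 in Zeb2 fl/fl and 0.0522, 0.110 and 0.0977 in Zeb2 cKO, overlapping between groups (exact permutation test, two-sided p = 0.4).

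The fibrillins form the microfibril itself. Fbn1 (chromosome 2, 125300594 to 125507993, minus strand) had 318, 807 and 350.5 CPM in Zeb2 fl/fl and 214, 293 and 395 CPM in Zeb2 cKO, and the groups overlapped, with Zeb2 cKO 3 above 2 of the 3 controls. Its means were 492 ± 273 and 301 ± 90.6 CPM (SD, n = 3 each), and the log2 fold change was -0.71 (SE 0.41, interval -1.69 to 0.27, edgeR adjusted p = 0.957). Fbn2 (chromosome 18, 58008623 to 58210487, minus strand), the fibrillin known mainly from development, had 6.85, 28.3 and 7.37 CPM in Zeb2 fl/fl and 3.54, 5.21 and 8.32 CPM in Zeb2 cKO. Again 1 control library was far above the rest and the remaining 5 were mixed, with Zeb2 cKO 3 above both other controls. The log2 fold change of Fbn2 was -1.32 (SE 0.61, interval -2.77 to 0.13, edgeR adjusted p = 0.957). Without Zeb2 fl/fl 2 the log2 fold changes were -0.15 for Fbn1 and -0.31 for Fbn2. Fbn2 remained a small part of the fibrillin signal in each library, at 0.0152 to 0.0322 of the Fbn1 level per kb.

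The fibulins did not form 1 pattern. Fbln1 (chromosome 15, 85205949 to 85286535, plus strand), which encodes a fibulin found in elastic fibres and basement membranes, had 32.8, 289 and 37.9 CPM in Zeb2 fl/fl and 45.9, 47.0 and 33.8 CPM in Zeb2 cKO. Here Zeb2 cKO 1 and 2 were above both other controls. Fbln1 had a log2 fold change of -1.50 (SE 0.83, interval -3.47 to 0.46, edgeR adjusted p = 0.957), and 0.26 without Zeb2 fl/fl 2 (interval -0.11 to 0.63), so its direction rested on that library. Fbln5 (chromosome 12, 101746565 to 101819055, minus strand), whose product tethers elastin to cells and is needed for elastic fibre formation, had 16.1, 116 and 20.4 CPM in Zeb2 fl/fl and 17.3, 18.5 and 24.0 CPM in Zeb2 cKO. Apart from the 1 high control, the Fbln5 values lay within 1.49-fold of each other. For Fbln5 the log2 fold change was -1.36 (SE 0.74, interval -3.10 to 0.39, edgeR adjusted p = 0.957), and it was 0.13 without Zeb2 fl/fl 2. Fbln2 (chromosome 6, 91212455 to 91272540, plus strand), a fibulin of vessels and of the developing heart valves, had 109, 124 and 118 CPM in Zeb2 fl/fl and 92.6, 89.0 and 119 CPM in Zeb2 cKO. Its highest library was only 1.04 times the next, and Zeb2 cKO 3 was above 2 of the 3 controls. The log2 fold change of Fbln2 was -0.22 (SE 0.16, interval -0.59 to 0.15, edgeR adjusted p = 0.957), and it was -0.17 (interval -0.51 to 0.16) without Zeb2 fl/fl 2, and both intervals included 0.

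Emilin1 and the microfibril-associated glycoproteins sit at the interface of elastin and microfibrils. Emilin1 (chromosome 5, 30913402 to 30921277, plus strand) had 21.4, 37.4 and 22.6 CPM in Zeb2 fl/fl and 13.4, 17.7 and 26.0 CPM in Zeb2 cKO. The groups overlapped through Zeb2 cKO 3. Emilin1 had a log2 fold change of -0.51 (SE 0.31, interval -1.24 to 0.22, edgeR adjusted p = 0.957), and -0.20 without Zeb2 fl/fl 2. Mfap4 (chromosome 11, 61485431 to 61488900, plus strand), whose product binds elastin and fibrillin, had 19.5, 145 and 23.6 CPM in Zeb2 fl/fl and 12.3, 20.9 and 25.1 CPM in Zeb2 cKO. Zeb2 fl/fl 2 was 5.77 times the next library, and the other 5 overlapped. For Mfap4 the log2 fold change was -1.69 (SE 0.79, interval -3.56 to 0.18, edgeR adjusted p = 0.957), and it was -0.15 without Zeb2 fl/fl 2. Mfap5 (chromosome 6, 122505845 to 122529290, plus strand), which encodes a microfibril-associated glycoprotein, had 32.4, 126 and 44.7 CPM in Zeb2 fl/fl and 25.7, 29.6 and 46.1 CPM in Zeb2 cKO. Its groups overlapped as well, with Zeb2 cKO 3 the second highest of all. Mfap5 had a log2 fold change of -1.002 (SE 0.52, interval -2.23 to 0.22, edgeR adjusted p = 0.957), and -0.19 without Zeb2 fl/fl 2.

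**Figure D2:**
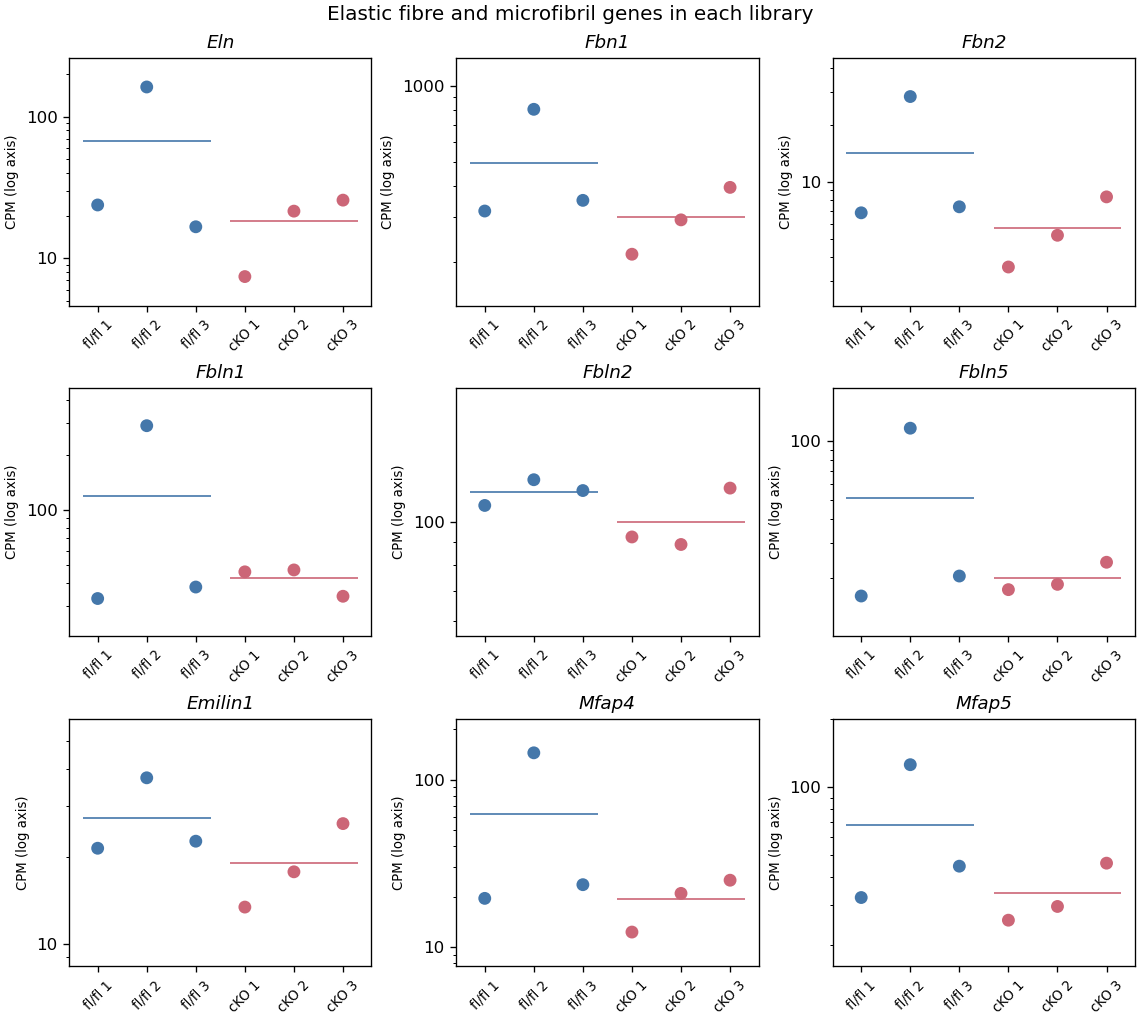
Each panel plots 1 gene, with CPM on a log axis against the 3 Zeb2 fl/fl libraries (blue) and the 3 Zeb2 cKO libraries (red); points are libraries and horizontal lines are group means. Zeb2 fl/fl 2 is the highest point in all 9 panels, by 1.04-fold in Fbln2 and 6.27-fold in Eln.

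Considered together, 0 of the 9 genes passed edgeR's quasi-likelihood test at an adjusted p under 0.05 in either direction, where 0% of the 14746 genes tested passed. At an unadjusted p under 0.05, 0 of the 9 were lower in Zeb2 cKO, against 0.861% of all genes, and 0 were higher, against 1.04%, or 1.9% in either direction. Groups did not overlap for 0 of the 9 genes, against 2.97% of all genes with Zeb2 cKO lower and 3.39% with Zeb2 cKO higher, 6.36% in all. Zeb2 cKO was on the lower side (log2 fold change under 0) for 9 of 9 genes, with a median of -1.32, whereas this held for 51.4% of all genes tested, with a median of -0.0069. Without Zeb2 fl/fl 2 it held for 7 of 9 genes, against 49.1% of all genes, with a median of -0.15, and 0 of the 9 had an unadjusted edgeR p under 0.05, against 1.08% of all genes lower and 1.55% higher. Leaving out Zeb2 fl/fl 1 raised the number of the 9 genes with an unadjusted edgeR p under 0.05 to 6. It was 4 without Zeb2 fl/fl 3 and 1 without Zeb2 cKO 3, all lower in Zeb2 cKO, but no adjusted p was below 0.596. The rise was not particular to the set. Over all genes, the number lower at an unadjusted edgeR p under 0.05 went from 127 to 827, 257 and 208 with these omissions. The summed level of the set was 580, 1834 and 641 CPM in Zeb2 fl/fl and 432, 543 and 703 CPM in Zeb2 cKO, with means of 1018 ± 707 and 559 ± 136 (SD, n = 3 each, exact permutation test, two-sided p = 0.4), a test that with 3 libraries against 3 cannot give a p below 0.1.

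**Figure D3:**
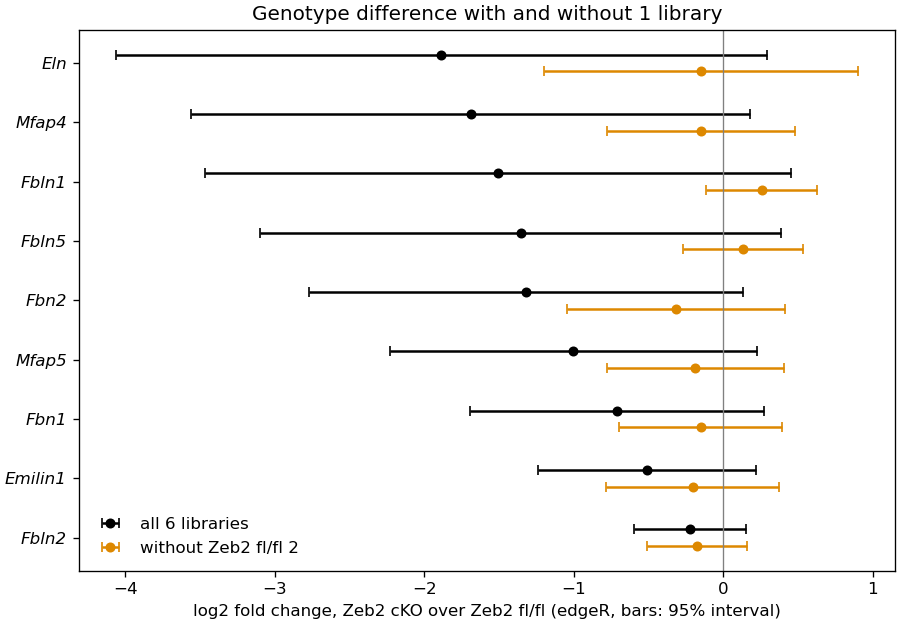
Points give the edgeR log2 fold change of Zeb2 cKO over Zeb2 fl/fl (x axis) for each gene (y axis) with 95% intervals, from all 6 libraries (black) and without Zeb2 fl/fl 2 (orange). All 18 intervals include 0, and the points without that library lie between -0.31 and 0.26.

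The 9 genes were all at their highest in Zeb2 fl/fl 2, but by very different amounts. Zeb2 fl/fl 2 was the highest of the 6 libraries for 9 of 9 genes, as it was for 35.2% of all genes tested, and it exceeded the mean of Zeb2 fl/fl 1 and 3 by over 2-fold for 7 of 9, against 10.1% of all genes. The ratio to that mean was 8.16 for Fbln1, 7.97 for Eln, 6.72 for Mfap4 and 6.38 for Fbln5, then 3.98 for Fbn2, 3.27 for Mfap5 and 2.41 for Fbn1, and only 1.70 for Emilin1 and 1.10 for Fbln2. The summed fibroblast markers were 4.47 times that mean, and 4 of the 9 genes exceeded that ratio. Collagen genes weighed heavily in this sum: Col3a1 alone gave 4872 of its 9630 CPM in Zeb2 fl/fl 2. The ratios of the single markers ran from 1.70 for Gsn to 6.31 for Col3a1. Against the fibroblast markers Dcn and Pdgfra alone, 6 of the 9 exceeded the markers' own ratio, Fbn2 and Mfap5 being the ones added, so this split depended on the markers used. Among the Zeb2 cKO hearts, replicate 3 was the highest for 8 of 9 genes, with Fbln1 as the exception, and replicate 1 was the lowest of all 6 libraries for 6 of 9. The 7 activated fibroblast markers moved with this, summing to 213, 253 and 587 CPM in Zeb2 cKO 1, 2 and 3, and their part in it was not tested. The share of all genes tested with the same order of Zeb2 cKO libraries was not counted, so it may not be particular to the set.

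Scaled to the summed fibroblast markers of the same library, the genes separated in Zeb2 fl/fl 2. Eln was at 1.19%, 1.68% and 0.724% of the marker sum in Zeb2 fl/fl and at 0.321%, 0.932% and 1.07% in Zeb2 cKO, and with Fbln1, Fbln5 and Mfap4 it stayed highest in Zeb2 fl/fl 2. Fbn1 was at 15.9%, 8.38% and 15.2% in Zeb2 fl/fl and at 9.21%, 12.7% and 16.4% in Zeb2 cKO, with its lowest level per marker sum in Zeb2 fl/fl 2. Fbln2 was at 5.45%, 1.29% and 5.09% in Zeb2 fl/fl and at 3.98%, 3.85% and 4.95% in Zeb2 cKO, and Fbln2 and Emilin1 were lowest in Zeb2 fl/fl 2 too. With Dcn and Pdgfra alone as the denominator these orders changed for 4 genes. Eln, Fbln1, Fbln5 and Mfap4 stayed highest in Zeb2 fl/fl 2 and were joined by Fbn2 and Mfap5, 6 of 9 in all, and only Fbln2 stayed lowest there. On that denominator Zeb2 cKO 1 was the lowest for Fbn1, with 39.4% against 66.9% for Zeb2 fl/fl 2, and for Emilin1, with 2.46% against 3.10%. No gene had groups that did not overlap with either denominator. The median log2 ratio of Zeb2 cKO over Zeb2 fl/fl across the 9 genes was -0.19 with the 10 markers and -0.55 with Dcn and Pdgfra. Smooth muscle cells also make elastic fibre proteins, and the sum of their 8 markers was 615 CPM in Zeb2 fl/fl 2 and 745 to 893 CPM in the other libraries, of which Des, which cardiomyocytes also express, gave 505 CPM in Zeb2 fl/fl 2. Single markers differed. Only 1 of the 8 was highest in Zeb2 fl/fl 2, Tagln, with 20.8 CPM there against 9.31 to 11.8 CPM in the others. Myh11 (11.5 against 14.6 to 28.6 CPM), Smtn (19.3 against 30.2 to 46.8 CPM) and Mylk (15.2 against 16.6 to 22.4 CPM) were lowest there, as was Des. Acta2 had 40.2 CPM against 31.1 to 85.4 CPM, and Cnn1 and Lmod1 also lay within the range of the others. The part of smooth muscle cells in the results was not tested.

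**Figure D4:**
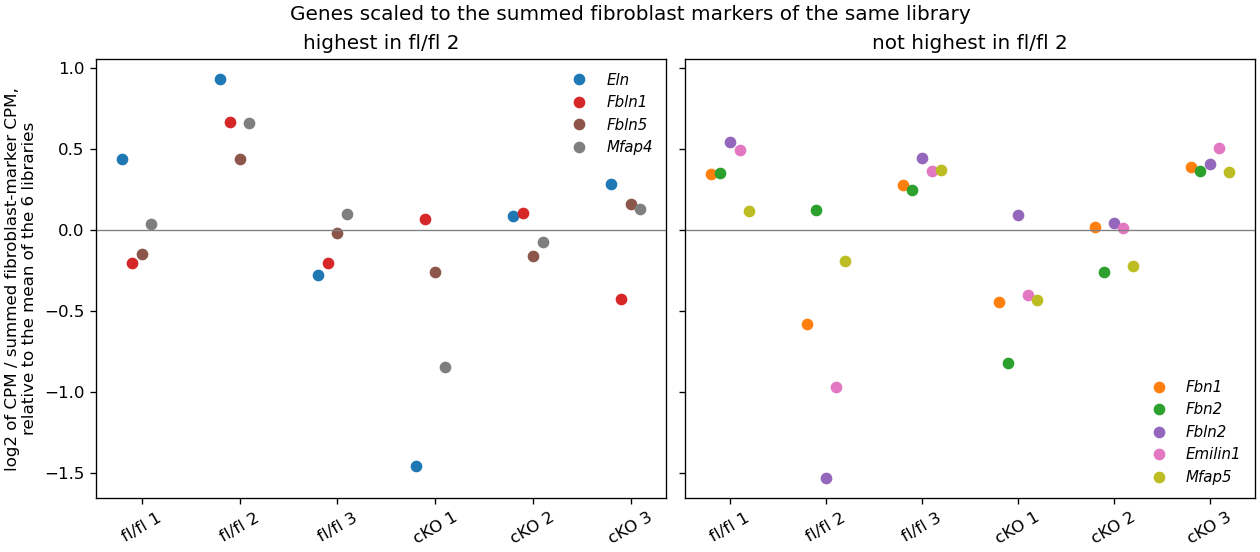
Points give the log2 of each gene's CPM over the summed fibroblast-marker CPM of the same library, relative to the mean of the 6 libraries (y axis), for each library (x axis), with a colour per gene. The left panel holds the 4 genes that are highest in Zeb2 fl/fl 2 on this scale and the right panel the other 5, of which Fbn1, Fbln2 and Emilin1 are lowest there; with Dcn and Pdgfra as the denominator, 6 genes are highest there and only Fbln2 is lowest.

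Of 51 other genes of the elastic fibre pathway, 48 could be tested and 0 passed at an adjusted p under 0.05. At an unadjusted edgeR p under 0.05, 4 were lower in Zeb2 cKO (0.861% of all genes tested were) and 1 was higher (1.04% of all genes), and 0 were past it without Zeb2 fl/fl 2. The log2 fold change was under 0 for 42 of the 48, with a median of -0.27, against 51.4% of all genes tested. After Zeb2 fl/fl 2 was left out it was under 0 for 23 of the 48, with a median of 0.010, against 49.1% of all genes. Among the 9 assembly and crosslinking genes, 8 were under 0, but only 2 without Zeb2 fl/fl 2, where the median moved from -0.51 to 0.075. Lox, the enzyme that crosslinks elastin and collagen, had 14.4, 209 and 19.9 CPM in Zeb2 fl/fl and 9.13, 10.9 and 21.6 CPM in Zeb2 cKO (log2 fold change -2.54, -0.30 without Zeb2 fl/fl 2), and the groups overlapped. The related oxidases Loxl1 and Loxl3 had log2 fold changes of -1.16 and -1.25, which were -0.16 and 0.075 without Zeb2 fl/fl 2.

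Among 20 tested microfibril-associated genes, 17 were under 0, with a median of -0.23, and 13 without Zeb2 fl/fl 2, with a median of -0.083. Ltbp2, a latent TGF-beta binding protein that associates with fibrillin, had 31.0, 202 and 31.5 CPM in Zeb2 fl/fl and 12.7, 19.5 and 36.3 CPM in Zeb2 cKO (log2 fold change -1.95, -0.45 without Zeb2 fl/fl 2). Emilin2, a relative of Emilin1, went the other way, with 9.64, 8.34 and 17.9 CPM in Zeb2 fl/fl and 18.4, 19.5 and 20.7 CPM in Zeb2 cKO. Its groups did not overlap, the log2 difference came to 0.71 (0.51 if Zeb2 fl/fl 2 is left out), and edgeR's adjusted p was 0.957. In the same list 2 genes did not overlap with Zeb2 cKO lower. Over the 48 tested pathway genes, groups did not overlap for 3 with Zeb2 cKO lower, against 2.97% of all genes, and for 1 with Zeb2 cKO higher, against 3.39%. Of the 8 tested proteases and regulators, 7 were under 0, and 3 without Zeb2 fl/fl 2. Mmp12, the macrophage elastase, had 6.21, 37.9 and 2.99 CPM in Zeb2 fl/fl and 4.20, 1.198 and 2.36 CPM in Zeb2 cKO (log2 fold change -2.60, -0.82 without Zeb2 fl/fl 2). It too was highest in the library with the highest macrophage markers. Past that library the orders differed. Zeb2 fl/fl 1 came next for Mmp12 but had the lowest macrophage marker sum, 222 CPM, against 311 CPM in Zeb2 fl/fl 3. The part of macrophages in the Mmp12 level was not tested. The elastolytic cathepsin Ctss was at -1.47 and the gelatinase Mmp2 at -0.85 on the log2 scale, and they came to -0.20 and 0.093 without Zeb2 fl/fl 2. Of the 11 receptor and integrin genes, 10 were under 0, and 5 without Zeb2 fl/fl 2. Glb1, whose splice variant is the elastin-binding protein, had the smallest p of them, with 7.83, 12.8 and 7.47 CPM in Zeb2 fl/fl and 4.38, 7.01 and 6.44 CPM in Zeb2 cKO. The Glb1 groups did not overlap, but its adjusted p was 0.957 by edgeR, and its log2 fold change of -0.66 was -0.36 without Zeb2 fl/fl 2. The integrin subunit genes Itgb5 and Itgb6 were at -0.68 and 0.49 on the log2 scale, and at -0.13 and 0.26 without that library.

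Across the 6 libraries, each gene was correlated with the mean profile of the other 8 on the log2 scale, as a description over 6 points that share their library and depth. Pearson's r was 0.996 for Fbn2, 0.993 for Fbn1, 0.990 for Mfap5 and 0.983 for Mfap4, and it was lowest for Fbln2 at 0.702 and Fbln1 at 0.813. Without Zeb2 fl/fl 2, r stayed at 0.988 for Fbn1 and 0.985 for Fbn2 but became -0.80 for Fbln1, so over those 5 libraries Fbln1 ran opposite to the rest of the set. Outside the set, the genes most like its mean profile were Mrc2, a collagen uptake receptor, with r of 0.998, Col16a1, a fibril-associated collagen, with 0.998, Adcy7, an adenylyl cyclase, with 0.997, Smo, a transducer of hedgehog signals, with 0.997, and Plat, tissue plasminogen activator, with 0.997. Without Zeb2 fl/fl 2 these were 0.990, 0.987, 0.986, 0.997 and 0.984.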

How the data were processed

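Total RNA from 6 hearts was ribosomal RNA-depleted, made into stranded libraries and sequenced from a single end; per the labels and methods, the authors aligned reads with STAR to mouse GRCm38, counted them per gene against Gencode M4, and deposited raw, unnormalized counts. Whether counting used strand was not given in the sources used here. On the opposite strand, Gm9913 covers 20.1% of Fbn1 exon bases, Mapk7 4.63% of Mfap4, Gm30003 3.3% of Eln and Gm26507 0.976% of Fbn2; a sequence search found no other near-identical copy. Zeb2 cKO was compared with Zeb2 fl/fl by edgeR 4.0.16 (R 4.3.3) with TMM scaling, filterByExpr and quasi-likelihood tests over 14746 genes, prior count 0.125 for fold changes. CPM is TMM-scaled. Single values were compared by two-sided exact permutation tests. DESeq2 1.42.0, other scalings, no filter, a replicate block and leaving out each library were alternatives. Per kb levels used exon lengths of a later Gencode release on the same build. The scripts were tested on simulated data. Named genes were the 9 genes, the 3 pathway genes per list with the smallest p, and the 5 with the most similar profile; members and lists were chosen with earlier results of these data known. Replicates are separate mice. Library totals of 37288174 to 51136331 limit counting error little beside the spread between animals (common biological coefficient of variation 0.243).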

Additional observations from a re-analysis of the deposited data

How the results depend on the processing

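The direction of the 9 genes held under other scaling, no filter and DESeq2, with a median log2 fold change of -1.32 to -1.30. Leaving out 1 library each gave -1.65 to -0.15, with -0.15 only without Zeb2 fl/fl 2, where Fbln1 and Fbln5 changed sign (-1.95 to 0.26 and -1.78 to 0.13 when 1 library was left out). The number of the 9 genes lower at an unadjusted p under 0.05 was 0, 3 without a filter (Fbn2, Eln, Mfap4), 3 by DESeq2 (Fbln5, Fbn2, Mfap5), and 0 to 6 when 1 library was left out. Over all genes, 127 were lower at an unadjusted p under 0.05 by edgeR, 326 without a filter, 217 by DESeq2 and 47 to 827 when 1 library was left out: 827 without Zeb2 fl/fl 1, 257 without Zeb2 fl/fl 3, 47, 51 and 208 without Zeb2 cKO 1, 2 and 3. For higher genes, 153 became 274 without a filter and 75 to 307 when 1 library was left out: 307 and 232 without Zeb2 fl/fl 1 and 2, and 75 without Zeb2 cKO 1. DESeq2 called 2 genes higher at an adjusted p under 0.05, Slc46a2 and Mrap2, neither among the 9, where edgeR called 0. Per fibroblast marker, the median log2 ratio of -0.19 was -0.55 with Dcn and Pdgfra alone, and -0.31 without Zeb2 fl/fl 2, an alternative chosen after seeing the data; Fbln1 moved to -0.64 and Fbln5 to -0.55.

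Whether the replicate numbers pair the samples could not be decided. Deviations of same-numbered libraries correlated at 0.088, -0.14 and -0.087, against -0.26 to 0.24 for differently numbered ones. With 3 libraries per group and Zeb2 fl/fl 2 standing apart, these values cannot exclude pairing. With a replicate block the median log2 fold change of the 9 genes was -0.72, with 100 genes lower and 147 higher at an unadjusted p under 0.05 and 0 at an adjusted p under 0.05. The cause of these shifts was not tested. The lowest count of any of the 9 genes in a library was 177, for Fbn2, so counting error was small beside the spread between the 3 animals of a group.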

Other observations

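The genes below are fibulins, latent TGF-beta binding proteins and lysyl oxidases from the pathway lists, chosen after their values were seen. The other fibulins were at low levels: Efemp1 (fibulin-3) had 1.49, 3.03 and 0.833 CPM in Zeb2 fl/fl and 4.24, 1.94 and 1.21 CPM in Zeb2 cKO, and its highest library was Zeb2 cKO 1, unlike the 9 genes. Efemp2 (fibulin-4), needed for elastin crosslinking, had 4.73, 12.8 and 5.39 CPM in Zeb2 fl/fl and 5.02, 5.16 and 5.92 CPM in Zeb2 cKO. Fbln7 had 0.504, 4.63 and 0.807 CPM in Zeb2 fl/fl and 1.02, 0.622 and 0.726 CPM in Zeb2 cKO. Without Zeb2 fl/fl 2 the log2 fold changes of Efemp1, Efemp2 and Fbln7 were 1.09, 0.089 and 0.27, and edgeR called none of them.

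The latent TGF-beta binding proteins, which share domains with the fibrillins, split by library. Ltbp1 had 41.0, 33.7 and 34.6 CPM in Zeb2 fl/fl and 33.3, 40.4 and 30.4 CPM in Zeb2 cKO, with no excess in Zeb2 fl/fl 2. Ltbp3 had 15.9, 56.1 and 18.3 CPM against 11.2, 11.9 and 20.5 CPM, and Ltbp4 had 109, 211 and 104 CPM against 77.0, 86.1 and 123 CPM, both highest in Zeb2 fl/fl 2. Of the oxidases, Loxl2 had 24.6, 41.8 and 26.6 CPM in Zeb2 fl/fl against 19.5, 22.8 and 36.0 CPM in Zeb2 cKO, and Loxl4 had 1.35, 1.96 and 1.74 CPM against 1.84, 1.11 and 1.92 CPM. edgeR called none of these genes at an adjusted p under 0.05.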
